A study of Rattus norvegicus with 36 samples.

Results

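The liver of rats given corn oil alone, without the test compound, is described here from the 6 vehicle arrays of a 36-array study of decabromodiphenylethane (DBDPE), a brominated flame retardant. The members were the arrays labelled as vehicle, replicates 1 to 6, and no measured value entered their choice. The animals were male Harlan Sprague Dawley rats, 7 weeks old when dosing began, and each received corn oil by oral gavage at 5 ml/kg on 5 consecutive days. The other 30 rats, in 5 groups of 6, had the same strain, sex, age, vehicle, route and schedule and received DBDPE in that oil, at a daily dose of 970, 97.1, 9.71, 0.97 and 0.1 mg/kg in the respective group. The left liver lobe was taken 1 day after the last gavage. The vehicle group is therefore not an untouched animal: gavage, corn oil and handling are shared by every group. Each array was taken as 1 rat, since the labels name 6 samples per group without naming animals, and the spread given is that between these samples.

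Most of the liver's mass is hepatocytes, which secrete most of the proteins of blood plasma and carry out bile acid synthesis, drug metabolism and the storage and release of glucose and fat. Some hepatocyte transcripts have long half-lives and are held at a steady level, whereas others follow hormones, feeding and the clock within hours. In male rats growth hormone is released in pulses, and each pulse activates the transcription factor STAT5 in hepatocytes, which is known to induce Cish, Socs2 and Onecut1 and to repress Bcl6.

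The values are log2 signals, on which a difference of 1 is a doubling of the signal. They lay between 1.93 and 14.68 in the vehicle arrays, with array medians of 5.07 to 5.12. Over all probe sets, which are not independent replicates, the 15 pairs of vehicle arrays correlated at r = 0.993 to 0.996. The 31042 probe sets named 14217 genes, each taken by its probe set of highest vehicle mean, and 7827 of these genes (55.1%) had a vehicle mean of 6 or more. The number of arrays limits the precision of every SD given.

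The liver label was borne out by the markers. All 14 measured hepatocyte markers of 16 listed had a vehicle mean above 6, between 9.33 for Tat, the tyrosine aminotransferase gene, and 14.67 for albumin. The summed list was steady, with a mean of 12.80 to 12.87 in the 6 animals. Markers of other tissues were mostly low: the median signal was 3.93 for pancreatic acinar cells, 3.54 for muscle, 3.28 for neutrophils and 4.67 for T and NK cells, and none of the measured T, NK and neutrophil genes reached a mean of 6. In each of the pancreatic and muscle lists 1 gene did, Cela1, an elastase, at 10.29 and Myh1, a myosin heavy chain, at 11.35. Whether the probe sets of these genes read only the gene they name was not tested. Macrophage markers were present, with a median of 8.37 over 12 genes, as were those of endothelial cells (7.88 over 11) and of stellate cells and fibroblasts (6.86 over 14). Because these are pieces of whole tissue, fewer cells of a type and less RNA per cell cannot be told apart.

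The brightest transcripts of the vehicle liver encoded proteins of the blood. Of the 50 genes of highest mean signal, 28 belonged to a list of secreted plasma proteins, of which 30 were measured. Their means ran from 13.28 to 14.67 near the top of the scale. A signal also depends on the probes, so the order is one of signals and not of transcript amounts. Genes on either side of the limit were F2, the prothrombin gene, in the 50th place and Ces1c, a carboxylesterase, in the 51st, both with a mean of 13.28.

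Albumin (Alb), the main protein of plasma, came first, with values of 14.65 to 14.68 and a mean of 14.67 ± 0.010 (SD, n = 6). Among carriers, transthyretin (Ttr), which transports thyroxine, had 14.23 ± 0.016 (SD, n = 6). The vitamin D binding protein Gc followed at 14.16 ± 0.011 (SD, n = 6). No animal stood apart in these 3 genes, whose highest and lowest values differed by 0.05 or less. The retinol carrier Rbp4 had a mean of 13.91, and the haemoglobin scavenger haptoglobin (Hp) 14.06, and the microglobulin precursor Ambp lay between 13.98 and 14.01. Apolipoproteins, which coat lipoprotein particles, were represented by Apoc3 at 14.16, Apoe at 14.12 and Apoc1 at 13.89, and by Apoh, with values of 13.98 to 14.02. Protease inhibitors of plasma included alpha-1-antitrypsin (Serpina1) at 14.13 and the serpin Serpina3l at 13.93. The 3 fibrinogen chains, which form one clotting protein, had means of 14.04 (Fgg), 13.90 (Fga) and 13.89 (Fgb). The complement component C3 had 13.93, the calcium-binding glycoprotein fetuin-A (Ahsg) 13.96 and the urinary protein Rup2 13.99. Only 2 of the 20 brightest encode proteins that act inside cells, the fatty acid binding protein Fabp1 at 13.95 and the mitochondrial respiratory chain subunit COX2 at 14.09.

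Further down the 50, male rat cytochrome P450 enzymes appeared, among them Cyp3a2 at 13.75 ± 0.065 (SD, n = 6), Cyp2c13 at 13.48 ± 0.028 (SD, n = 6) and Cyp2c11 at 13.39 ± 0.087 (SD, n = 6). The SD of the 50 brightest transcripts ranged from 0.0104 to 0.131, with a median of 0.0345. The most variable of them was Cyp2e1, a cytochrome P450 that oxidises ethanol, with values of 13.37 in replicate 5 to 13.73. These SDs were small beside the median of 0.10 over genes of mean 6 or more, but the place near the top of the scale was common to them all, and its part in the small SDs was not tested.

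Most of the liver transcriptome differed little between the 6 animals. Over the 7827 genes of mean 6 or more the SD had a median of 0.10, a 10th percentile of 0.05, a 90th of 0.23 and a 99th of 0.58. An SD over 0.5 was found in 124 genes (1.58%), and one over 1 in 16. The 50 genes of highest SD, from 0.67 to 2.87, are the variable transcripts described next; they were chosen by that SD, so their spread is a description with no test. Just inside and outside the limit lay Cmc1, a mitochondrial complex IV assembly gene, and Etv3, an ETS family repressor, both with an SD of 0.67. The limit on the mean also decided some: Slc15a4, a lysosomal peptide transporter, was the dimmest variable transcript at a mean of 6.42. Ms4a6a, a membrane protein of macrophages, fell just below with a mean of 5.99 and an SD of 0.78, and 15 genes below a mean of 6 had an SD as high as those of the 50.

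**Figure D1:**
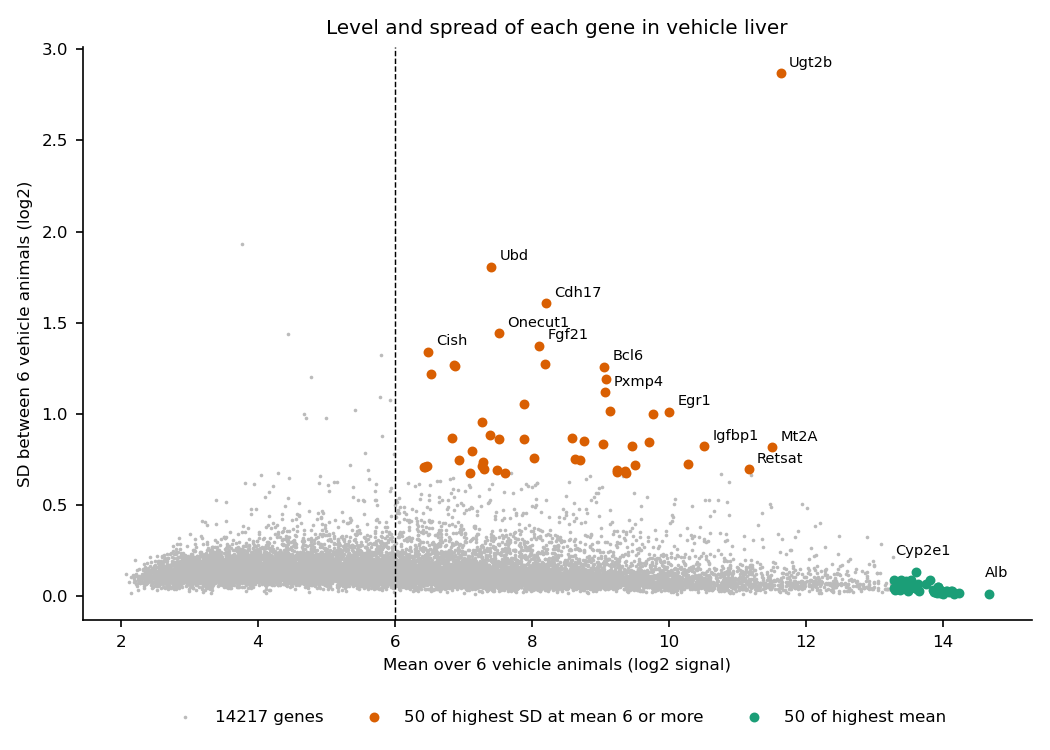
Each point is 1 of 14217 genes, with its mean log2 signal over the 6 vehicle animals on the x axis and the SD of those 6 values on the y axis; the dashed line marks a mean of 6. The 50 brightest genes (green) lie at the lower right with SDs of 0.131 or less, and the 50 variable transcripts (orange) reach from 0.67 to 2.87.

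A few transcripts owed their SD to a single animal. Ugt2b, annotated as a UDP-glucuronosyltransferase, an enzyme that attaches glucuronic acid to steroids and drugs, had a lowest value of 5.78, a median of 12.68 and a highest of 13.08. Replicate 3 alone was low, and the other 5 animals lay between 12.57 and 13.08. The SD of 2.87 became 0.22 without that animal. A second probe set of the gene, with a mean of 8.07, was also low in replicate 3 alone, at 3.47 against 8.41 to 9.78 (r = 0.98 over the 6 animals, exact permutation p = 0.00278, adjusted p = 0.00679 over 22 probe sets). Of related genes, Ugt2b1 was also lowest in replicate 3, at 11.78 against 11.92 to 12.46 in the others. It had r = 0.65 with Ugt2b over the deviations of the 30 dosed animals. Ugt2a1, a dim gene with a mean of 5.52, had r = 0.52 there, but its 5.54 in replicate 3 lay within the range of the others. Ugt2b10 was highest in replicate 3, at 10.72, and had r = -0.18 with Ugt2b in the dosed animals. The r there was -0.33 for Ugt2b34l1, 0.04 for Ugt2b15, 0.33 for Ugt2b35 and 0.35 for Ugt2b7. In replicate 3 Ugt2b15 had 12.13 and Ugt2b35 13.27, both within the range of the others. Among the 30 dosed rats 3 had Ugt2b values below the middle of the gap (9.17), 1 each at 0.1, 0.97 and 97.1 mg/kg, with a lowest value of 5.06. UDP-glucuronosyltransferases are a family of closely similar genes, and which members these probe sets read is uncertain.

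Ephx2, the soluble epoxide hydrolase that hydrolyses fatty acid epoxides, was the reverse case. Its lowest value was 5.68, its median 6.18 and its highest 8.96, and replicate 5 alone was high. Without replicate 5 the SD of 1.22 became 0.26. In the dosed rats 27 of 30 lay below the middle of that gap (7.62), and the other 3, 1 at 9.71 and 2 at 970 mg/kg, reached 8.99. Nqo1, the quinone reductase, was highest in the same vehicle animal, at 8.96 against 7.14 to 7.55. The correlation of Nqo1 with Ephx2 was 0.95 over the 6 vehicle animals and -0.29 over the deviations of the 30 dosed animals from their group means.

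Pxmp4, a peroxisomal membrane protein, had a lowest value of 7.04, a median of 9.31 and a highest of 10.03. Replicate 1 was the low animal, and the SD of 1.12 became 0.57 without it. None of the 30 dosed rats was as low, their lowest value being 8.56. Abca1, the cholesterol exporter that starts high-density lipoprotein, had a lowest value of 8.07, a median of 9.93 and a highest of 10.33. Replicate 2 was the low one, and without it the SD of 0.84 became 0.29. Among the dosed rats 4 of 30 lay below the middle of the gap (8.88). The gene's 4 probe sets disagreed: 1 followed the brightest (r = 0.99), and the other 2 ran against it (r = -0.79 and -0.65), so that their mean had an SD of 0.30.

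Others split the animals into groups of several. Ubd, the ubiquitin-like protein FAT10, which inflammatory cytokines induce, had a lowest value of 5.04, a median of 8.37 and a highest of 8.81. Replicates 2 and 5 were low, at 5.04 and 5.16, and the other 4 lay at 8.04 or above. The dosed rats held both levels, with 11 of 30 below the middle of the gap (6.60), 1 to 3 in each dose group. Cdh17, the liver-intestine cadherin, had a lowest value of 5.42, a median of 8.17 and a highest of 9.83. Replicate 2 was lowest, replicates 3 and 5 were highest at 9.74 and 9.83, and the SD of 1.61 became 0.95 without replicate 2. In the dosed rats 6 of 30 lay below the middle of the gap (6.65), and their values reached from 5.35 to 10.12.

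**Figure D2:**
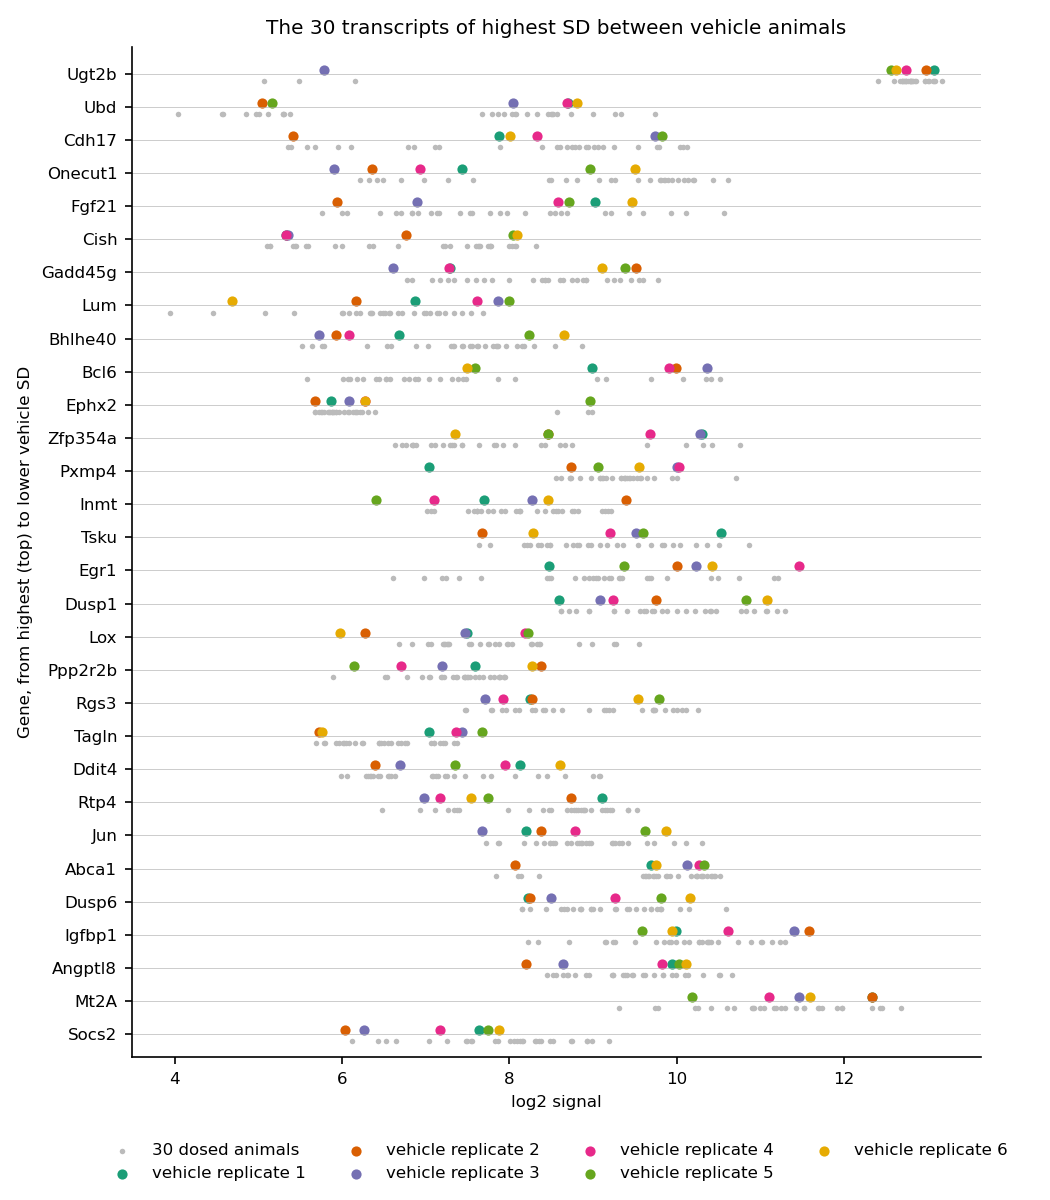
Log2 signal (x axis) of the 30 transcripts of highest vehicle SD (rows, highest at the top) in each vehicle animal (coloured points) and in the 30 dosed animals (small grey points below). Ugt2b and Ephx2 show 1 vehicle animal apart at 5.78 and 8.96, Ubd shows 2 low animals, and most other transcripts are spread along a range.

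The variable transcripts did not vary independently. Clustering the 50 by their Pearson correlation over the 6 vehicle animals, joined where the average r was 0.7 or more, gave 7 groups of 3 or more that held 35 of them, and 15 stood in no group. With 6 animals a high r is common: of all pairs of genes of mean 6 or more, 7.84% had an r over 0.7. These correlations made the groups and are therefore given with no test, and the points share their 6 arrays. The 30 dosed animals, which had no part in the choice or the grouping, show which groups recurred: the median r of their deviations from the dose group means was 0.63 in the group led by Onecut1 and 0.52 in that led by Fgf21, and -0.13 to 0.09 in the other 5 groups. Over all pairs of genes of mean 6 or more that median was 0.045.

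**Figure D3:**
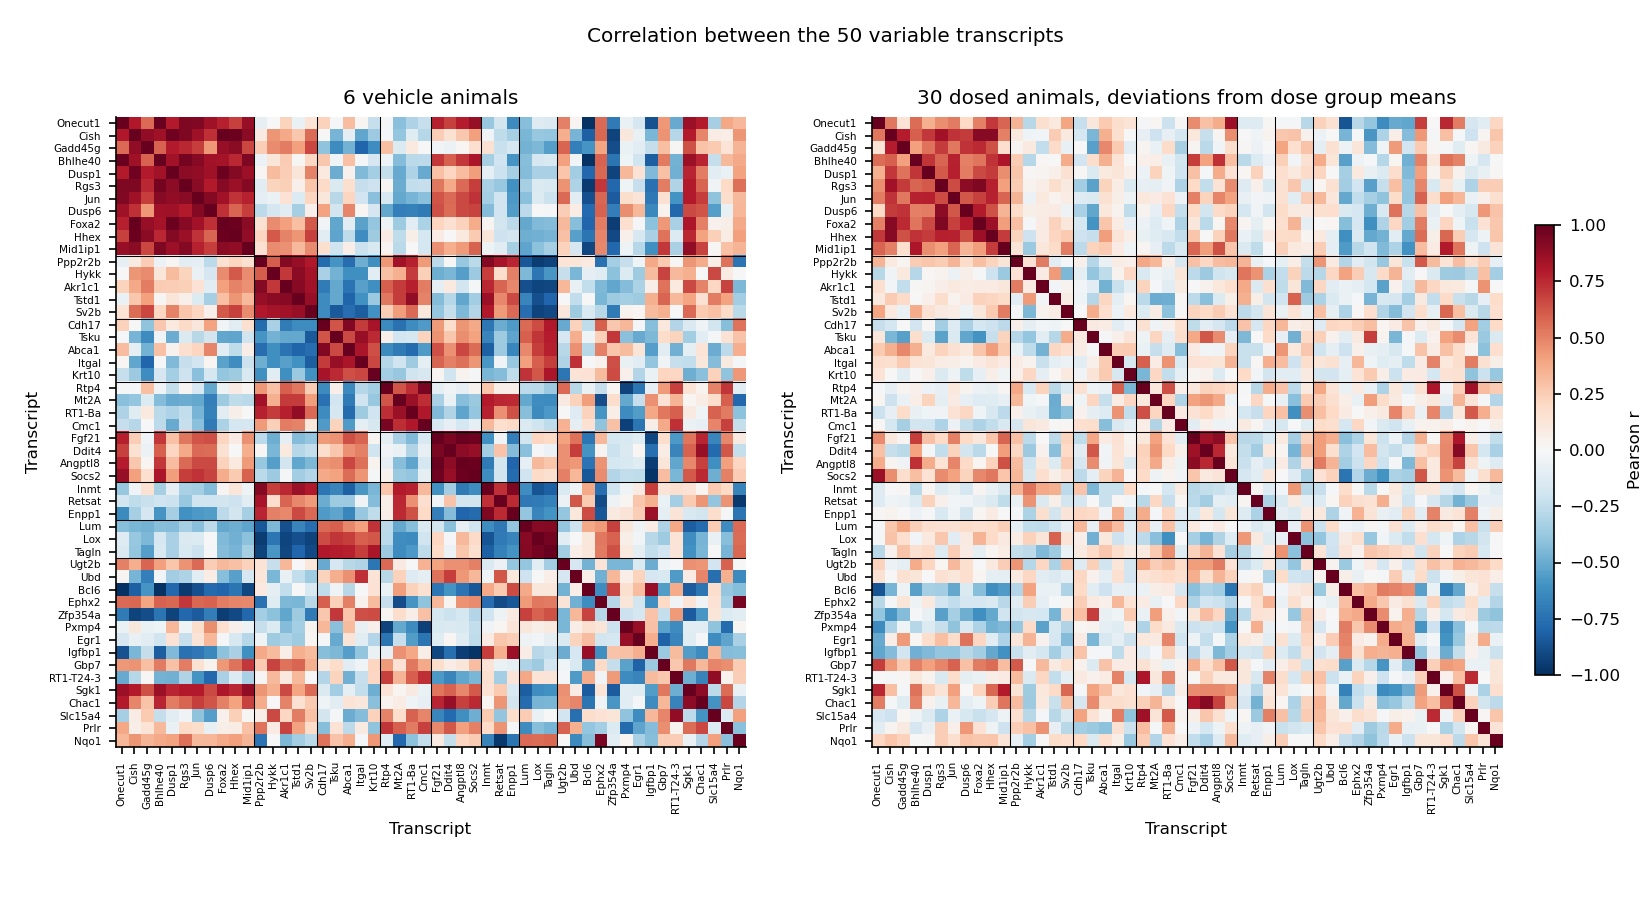
Pearson r between each pair of the 50 variable transcripts over the 6 vehicle animals (left) and over the deviations of 30 dosed animals from their dose group means (right); black lines bound the 7 groups found in the vehicle animals, in the order Onecut1, Ppp2r2b, Cdh17, Rtp4, Fgf21, Inmt and Lum. The block of 11 transcripts led by Onecut1 and part of that led by Fgf21 are red on both sides, with median r of 0.63 and 0.52 on the right.

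The largest group held 11 transcripts, with growth hormone and immediate early genes in it. These were Onecut1, Cish, Gadd45g, Bhlhe40, Dusp1, Rgs3, Jun, Dusp6, Foxa2, Hhex and Mid1ip1, and their pairs had a median r of 0.86 in vehicle. Replicates 5 and 6 were high, with mean deviations from the vehicle mean of 1.06 and 1.23 over the group, and replicate 3 was lowest at -0.92. Every one of its 55 pairs had an r above 0 in the dosed animals, and 45 an r over 0.5. The group depended on the method: of the 11, the most found together in 1 group were 6 with rank correlations, 6 at an average r of 0.8, 5 with complete linkage and 6 without replicate 6.

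Onecut1, a liver transcription factor also known as HNF6, had a lowest value of 5.90, a median of 7.18 and a highest of 9.50. Replicates 5 and 6 were high, at 8.97 and 9.50, and the other 4 lay at or below 7.43. Cish, the STAT5-induced inhibitor of cytokine signalling, had a lowest value of 5.33, a median of 6.07 and a highest of 8.09. The high animals were again replicates 5 and 6, replicate 2 lay between at 6.77, and replicates 1, 3 and 4 lay at 5.33 to 5.36. Gadd45g, a stress-induced growth arrest gene, had a lowest value of 6.61, a median of 8.20 and a highest of 9.51. Here replicate 2 joined replicates 5 and 6, and was the highest. Bhlhe40, a repressor that modulates the circadian clock, had a lowest value of 5.72, a median of 6.38 and a highest of 8.65, in replicate 6.

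Dusp1, Jun and Dusp6, which growth factors induce within minutes, were high in the same animals, whereas Egr1, of the same class, was not (r = -0.17 with Onecut1 and 0.14 with Dusp1 in vehicle, -0.50 and 0.18 in the dosed animals). Dusp1, a phosphatase that switches off MAP kinases, had a lowest value of 8.60, a median of 9.49 and a highest of 11.08. Jun, a subunit of the AP-1 transcription factor, had a lowest value of 7.68, a median of 8.59 and a highest of 9.88. Dusp6, the phosphatase of the ERK kinases, had a lowest value of 8.22, a median of 8.88 and a highest of 10.16. In each of these 3 genes replicates 6 and 5 held the highest and next highest value. Rgs3, a regulator of G protein signalling, had a lowest value of 7.71, a median of 8.26 and a highest of 9.79, in replicate 5. Its other 2 probe sets, with means of 4.03 and 5.22, did not follow it (r = -0.27 and -0.32), and the mean of the 3 had an SD of 0.28. The liver transcription factors Foxa2 and Hhex, with SDs of 0.75 and 0.72, followed each other closely in vehicle (r = 0.98) and in the dosed animals (r = 0.86).

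Bcl6, the repressor that growth hormone pulses are known to lower, ran opposite to this group. Its lowest value was 7.50, its median 9.45 and its highest 10.37. Replicates 5 and 6 were low, at 7.59 and 7.50, and the correlation with Onecut1 was -0.99 over the 6 vehicle animals. Zfp354a, a zinc finger protein, was also low where Onecut1 was high, with a lowest value of 7.35 in replicate 6, a median of 9.07 and a highest of 10.30 in replicate 1. It had r = -0.70 with Onecut1 in vehicle and -0.39 in the dosed animals. Of the 17 genes of mean 6 or more in the growth hormone and sex-biased list, 5 (29.4%) were among the 50 variable transcripts, against 0.639% of all genes of that level, and of its 21 measured genes 4 (19.0%) were among the 50 brightest, against 0.352% of all genes. The list was chosen with earlier results of these data known.

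The promoter of Cish, the best-known direct target of STAT5 and a member of this group, was picked to show the STAT5 motif. Its matches are therefore a description with no test. It is the 250 bases before the gene's start in RefSeq on rat build GRCr8, chr8:116850719-116850968, plus strand, 5′ to 3′, with matches to the motif TTCNNNGAA, the core of a STAT5 site, in capitals.
Cish: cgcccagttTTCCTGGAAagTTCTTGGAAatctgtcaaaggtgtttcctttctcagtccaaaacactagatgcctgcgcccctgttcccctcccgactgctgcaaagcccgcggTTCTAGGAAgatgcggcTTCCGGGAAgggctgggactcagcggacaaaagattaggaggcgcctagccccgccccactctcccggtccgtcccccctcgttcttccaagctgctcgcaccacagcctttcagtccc
The 4 matches begin 241, 230, 136 and 119 bases before the start. The motif was searched on both strands, and 7.52% of 27457 RefSeq promoters of the same length hold it, or 6.13% of those of measured genes. In the Onecut1 group Cish is the only one of 9 with a promoter in the table to hold it. Of the 38 variable transcripts with a promoter, 3 (7.89%) hold it, Cish, Zfp354a and Gbp7, a share near that of all promoters. The clock-type E-box CACGTG occurs in 3 of those 9 (Gadd45g, Bhlhe40 and Dusp1) against 5.79% of all promoters and 7.82% of those of 11733 measured genes. It was not particular to this group: 8 of the 38 variable transcripts with a promoter (21.1%) hold it, among them Bcl6, Abca1, Mt2A and Cmc1. The AP-1 site TGANTCA occurs in none, against 6.36% and 4.84%, the cAMP response element TGACGTCA in 1 (Dusp1), against 1.70% and 2.64%, and the ATF4-type TGATGNAA in 1 (Gadd45g), against 3.27% and 2.02%. These are matches of letters in a short window and do not show binding.

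The group led by Fgf21 held Ddit4, Angptl8 and Socs2 besides it, with a median r of 0.96 in vehicle. In the dosed animals 3 of its 6 pairs had an r over 0.5, those among Fgf21, Ddit4 and Angptl8, and Socs2 had r = 0.28 with Fgf21, 0.10 with Ddit4 and 0.13 with Angptl8. Fgf21, the hormone that the liver releases on fasting and under amino acid stress, had a lowest value of 5.94, a median of 8.65 and a highest of 9.47. Replicates 2 and 3 were low, at 5.94 and 6.90, and the other 4 lay at 8.58 or above. Ddit4, a stress-induced inhibitor of the growth kinase mTOR, had a lowest value of 6.40, a median of 7.65 and a highest of 8.61. Angptl8, a feeding-induced liver hormone that restrains lipoprotein lipase, had a lowest value of 8.20, a median of 9.89 and a highest of 10.11. In all 3 genes replicates 2 and 3 were the low animals. Socs2, an inhibitor of growth hormone signalling, had a lowest value of 6.04, a median of 7.40 and a highest of 7.88, with the same 2 animals low. In the dosed animals Socs2 followed Onecut1 (r = 0.86) as it did in vehicle (r = 0.87).

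Igfbp1, an insulin-repressed binding protein of insulin-like growth factors, ran the other way, with a lowest value of 9.59, a median of 10.30 and a highest of 11.58. Replicates 2 and 3 were high, at 11.58 and 11.40, and the correlation with Fgf21 was -0.91 over the 6 vehicle animals. Chac1, an ATF4 target that degrades glutathione, stood in no group at the threshold used. It had r = 0.87 with Ddit4 in vehicle and 0.91 in the dosed animals.

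The promoters of Fgf21 and Angptl8 are shown because each holds a match to TGATGNAA, the core of an ATF4 site, in capitals below. They are the 250 bases before the start in RefSeq on GRCr8, 5′ to 3′ along the gene, for Fgf21 chr1:105221377-105221626, minus strand, and for Angptl8 chr8:28652305-28652554, plus strand.
Fgf21: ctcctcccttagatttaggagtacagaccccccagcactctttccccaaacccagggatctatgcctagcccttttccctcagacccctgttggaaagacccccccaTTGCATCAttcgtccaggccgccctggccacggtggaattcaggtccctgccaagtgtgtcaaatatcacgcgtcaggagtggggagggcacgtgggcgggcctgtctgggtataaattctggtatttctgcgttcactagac
Angptl8: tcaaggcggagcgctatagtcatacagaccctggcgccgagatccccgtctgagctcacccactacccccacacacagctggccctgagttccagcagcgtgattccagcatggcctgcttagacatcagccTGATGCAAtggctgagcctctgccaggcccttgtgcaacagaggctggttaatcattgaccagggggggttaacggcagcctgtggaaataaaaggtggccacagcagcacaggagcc
The match begins 143 bases before the start in Fgf21, where it reads on the opposite strand, and 118 bases before it in Angptl8. Of the 3 members with a promoter in the table these 2 hold the motif, against 3.27% of all promoters and 2.02% of those of measured genes, and neither match overlaps another motif searched. The Fgf21 promoter also holds 1 CACGTG. None of the 3 holds TTCNNNGAA. Of the 38 variable transcripts with a promoter, 4 (10.5%) hold TGATGNAA: Fgf21, Gadd45g, Angptl8 and Chac1. The 2 promoters were shown because they hold that motif, so its count in the group is a description with no test.

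Leading pairs of the groups were tested in the dosed animals through the 2 members of highest SD, with values taken as deviations from the dose group mean and permuted within dose groups (two-sided, adjusted over the 7 groups). Fgf21 and Ddit4 had r = 0.85 over 30 animals (permutation p = 2.000e-05, adjusted p = 1.400e-04; rho = 0.88, permutation p = 1.000e-05, the smallest the permutations can give, adjusted p = 7.000e-05). Without the 2 animals farthest from the median r was 0.84, and within single dose groups it was 0.75 to 0.92. Onecut1 and Cish had r = 0.53 (permutation p = 0.00793, adjusted p = 0.0278; rho = 0.49, permutation p = 0.0172, adjusted p = 0.0603), and r = 0.46 without the 2 farthest animals. Within dose groups that correlation was 0.67 to 0.79 in 4 groups and -0.32 at 0.97 mg/kg, and without the groups at 97.1 and 970 mg/kg it was 0.48 with an adjusted permutation p of 0.317.

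The leader of each group was also set against the variable transcript outside it with the most negative r to the group's mean, which made a second family of 7 tests. Onecut1 and Bcl6 had r = -0.87 in the 30 dosed animals (permutation p = 3.000e-05, adjusted p = 2.100e-04; rho = -0.77, permutation p = 1.200e-04, adjusted p = 8.400e-04), and r = -0.81 without the 2 farthest animals. Fgf21 and Igfbp1 had r = -0.29 (adjusted permutation p = 0.337), and Rtp4 and Pxmp4 had r = -0.31 (adjusted permutation p = 0.337). The other 5 leading pairs had r of -0.08 to 0.14 in the dosed animals, with an adjusted permutation p of 0.898 each.

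**Figure D4:**
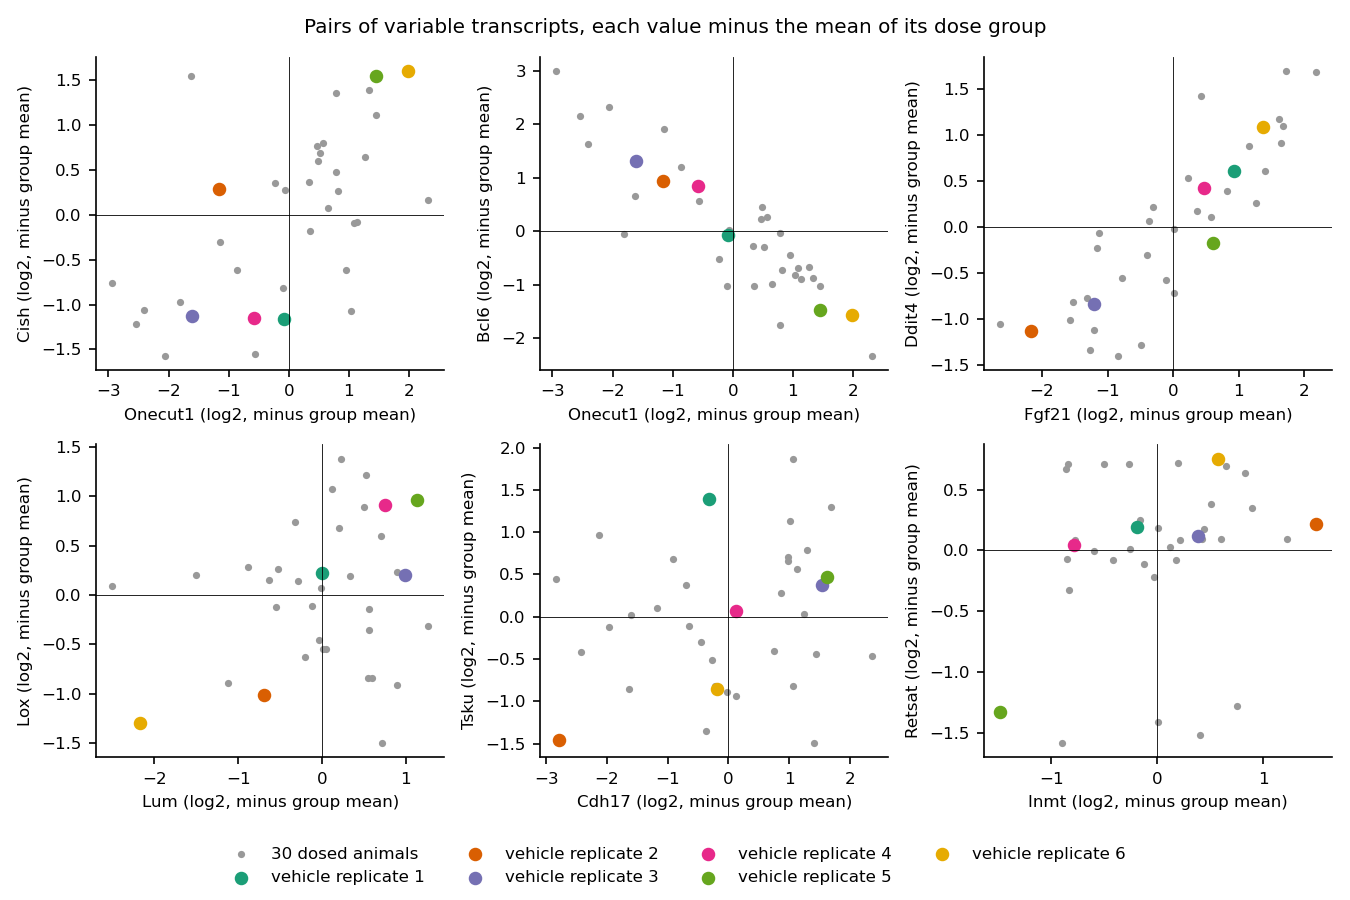
Deviation from the dose group mean (log2) of one transcript against another, with 1 point per animal: coloured for the 6 vehicle animals, grey for the 30 dosed animals. Onecut1 with Bcl6 (dosed r = -0.87) and Fgf21 with Ddit4 (dosed r = 0.85) keep their slope in the grey points, whereas Lum with Lox has r = 0.91 in vehicle and -0.08 in the dosed animals.

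Ranking 7778 other genes of mean 6 or more by their correlation with the mean of a group in the dosed animals named the genes most like it, and the vehicle animals give values that this ranking did not use. With the Onecut1 group went Rnf39 (r = 0.93 in 30 dosed animals, 0.89 in 6 vehicle animals), a ring finger gene, and Vgll4 (0.92 and 0.98), a cofactor of TEAD transcription factors. All 8 genes ranked highest had a positive r in vehicle, with a median of 0.89 against 0.223 over all genes ranked. Against the group went Cyp7a1 (-0.74 and -0.75), whose enzyme sets the pace at which cholesterol is turned into bile acids. So did the liver transcription factors Prox1 (-0.74 and -0.77) and Tbx3 (-0.76 and -0.69), Sall1 (-0.71 and -0.95) and Fzd8 (-0.71 and -0.89). The rest of the 8 lowest were weaker in vehicle: Tbc1d2 (-0.73 and -0.18), Lnx2 (-0.72 and -0.26) and Efna5 (-0.71 and -0.14). The median in vehicle was -0.72 over the 8 lowest. With the Fgf21 group went Atf4, the transcription factor of the amino acid response (0.88 and 0.96), and G0s2, an inhibitor of fat breakdown (0.88 and 0.94). The 8 genes ranked highest had a vehicle median of 0.67 against 0.096 over all genes, whereas of the 8 lowest 4 had the same sign in vehicle.

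The remaining groups were seen in the vehicle animals but had a median r near 0 in the dosed ones. Rtp4, an interferon-induced chaperone, had a lowest value of 6.98, a median of 7.65 and a highest of 9.11. Replicates 1 and 2 were high, at 9.11 and 8.74. Mt2A, a metal-binding metallothionein, had a lowest value of 10.18, a median of 11.53 and a highest of 12.34, shared by replicates 1 and 2. Its SD of 0.82 became 0.55 without replicate 5, the low animal. RT1-Ba, an MHC class II chain that presents antigen, and Cmc1 completed this group of 4, with a median r of 0.77 in vehicle and 0.09 in the dosed animals. Single pairs among immune genes were closer there: Rtp4 had r = 0.64 with RT1-Ba, 0.81 with RT1-T24-3, an MHC class I gene, and 0.85 with Slc15a4 in the dosed animals, against 0.74, 0.68 and 0.49 in vehicle. The RT1-Ba values rest on 1 of its 4 probe sets. The others, with means of 7.41, 6.86 and 7.01, had r of -0.75, -0.03 and -0.20 with it in vehicle. In the dosed animals they had 0.00, -0.21 and -0.34.

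Interferon-response genes as a list moved with the same 2 vehicle animals. The mean of its 26 measured members was 7.21 in replicate 1 and 6.93 in replicate 2, against 6.28 to 6.46 in the others. Irf7, the interferon regulatory factor, had 7.82 and 7.50 in those animals and 6.24 to 6.64 in the others. Isg15, a ubiquitin-like antiviral protein, had 7.54 and 6.87 against 5.86 to 6.46. Of the 26 members 13 had a mean of 6 or more, Rtp4 among them, which was chosen by its vehicle SD. Outside the list, Gbp7, an interferon-induced GTPase, had 8.63 in replicate 1 and 7.92 in replicate 2, against 6.59 to 8.51 in the others. Ubd had 8.70 and 5.04 in replicates 1 and 2, against 5.16 to 8.81. The antigen presentation list had means of 7.70 and 7.72 in replicates 1 and 2 and 7.20 to 7.47 in the others. Markers of macrophages moved with it: the mean of all 12 measured was 8.61 and 8.67 in replicates 1 and 2 and 7.93 to 8.34 in the others, and Clec4f, the Kupffer cell lectin, had 10.38 and 10.63 against 9.49 to 10.09. No marker of the list was near the lower end of the scale, the lowest having a mean of 6.38, and the part of macrophages in the result was not tested.

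Lum, a collagen-binding proteoglycan, led a group of 3 with Lox and Tagln. Its lowest value was 4.69, its median 7.25 and its highest 8.00. Replicates 6 and 2 were lowest, at 4.69 and 6.17, and the SD of 1.27 became 0.77 without replicate 6. Lox, which cross-links collagen, had a lowest value of 5.98, a median of 7.49 and a highest of 8.23. Tagln, an actin-binding protein of contractile cells, had a lowest value of 5.73, a median of 7.20 and a highest of 7.68. In both, replicates 2 and 6 were again the low animals. The mean of the 14 stellate cell and fibroblast markers, which include Lum and Tagln, was 6.80 in replicate 6, 6.96 in replicate 2 and 7.27 to 7.62 in the others. Collagen itself had the same order with less spread, with Col3a1 at 10.77 and 10.95 in those animals and 11.22 to 11.53 in the others. The part of these cells in the result was not tested. In the dosed animals the group's median r was -0.08, and Lum and Tagln had r = 0.45.

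The group led by Ppp2r2b, a regulatory subunit of protein phosphatase PP2A, held Hykk, Akr1c1, Tstd1 and Sv2b besides it. Ppp2r2b had a lowest value of 6.14, a median of 7.39 and a highest of 8.38, with replicates 2 and 6 high. Hykk, the hydroxylysine kinase, reached from 7.29 to 9.45, and Akr1c1, an aldo-keto reductase, from 6.40 to 8.12. The median r of this group was 0.85 in vehicle and 0.06 in the dosed animals.

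Cdh17 was grouped with Tsku, Abca1, Itgal and Krt10. Tsku, a secreted liver protein that acts on cholesterol and energy balance, had a lowest value of 7.68, a median of 9.36 and a highest of 10.53. Replicate 2 was the lowest in Cdh17, Tsku and Abca1, as it was in Itgal, a leukocyte integrin chain, at 5.14. The group's median r was 0.72 in vehicle and 0.06 in the dosed animals. Its mean had r = -0.77 over the 6 vehicle animals with the 3′ to 5′ difference of the beta-actin control, a measure of RNA length that lay between 1.05 and 1.22. That r was taken for each of the 7 groups and was largest in size here, the others having -0.45 to 0.53. For the Gapdh control the 3′ to 5′ difference lay between -0.12 and -0.06, and its r with the groups was not taken. The part of RNA quality in this group was not tested.

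Inmt, a methyltransferase of small amines, led the last group, with Retsat, which reduces retinol, and Enpp1, an enzyme that makes pyrophosphate. Inmt had a lowest value of 6.41, a median of 7.99 and a highest of 9.39. Replicate 5 was the lowest in all 3, with Retsat at 9.84 against 11.21 to 11.92 in the others. The median r was 0.74 in vehicle and -0.13 in the dosed animals. Egr1, an immediate early transcription factor, was in no group, with a lowest value of 8.48 in replicate 1, a median of 10.12 and a highest of 11.47 in replicate 4. In Jun and Dusp1, other immediate early genes, the highest values were in replicate 6.

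Other probe sets of the same genes gave a check that the choice had not used. For 13 of the 50 genes there were 22 further probe sets, of which 13, belonging to 10 genes, had r over 0.9 with the one used. By Pearson r each of those 13 had an adjusted exact permutation p below 0.05, the smallest being 0.00437. Another 9 of the 22 had an r of 0 or less. The 9 belonged to Rgs3, Abca1, RT1-Ba and Sv2b. For Onecut1 the second probe set had r = 0.99 (exact permutation p = 0.00139, adjusted p = 0.00437), for Cish r = 1.00 (exact permutation p = 0.0167, adjusted p = 0.0282) and for Pxmp4 r = 0.99 (exact permutation p = 0.00139, adjusted p = 0.00437). By rank, Cish had rho = 0.71 (adjusted exact permutation p = 0.187) and Lox rho = 0.89 (adjusted exact permutation p = 0.0611). The others of the 13 stayed below 0.05 by rank. Among the 15 further probe sets of mean 6 or more, 10 had r over 0.9.

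Gene lists showed where the spread between vehicle animals lay. The lists were 32 pathways, responses and cell types, with 496 genes measured of 617, and the SD of each was summarised over members of mean 6 or more. Among the 27 lists with 3 or more such members, the widest was that of immediate early genes, with a median SD of 0.56 over 13 genes, 12 of them above the 90th percentile of all genes. Interferon-response genes had 0.42 over 13, antigen presentation 0.35 over 21, and glucocorticoid and fasting genes 0.32 over 17. Among the last, Pdk4, the kinase that restrains glucose oxidation, had values of 8.03 to 9.52, and Sgk1, a kinase induced by glucocorticoids, 8.80 to 10.82. Sterol synthesis and uptake genes had a median SD of 0.28, and their mean was lowest in replicate 1, at 9.86, and highest in replicate 6, at 10.54. Insig1, the sterol sensor's partner, had 10.38 and 11.68 in those 2 animals. Fatty acid synthesis and glycolysis genes had 0.27, with their mean highest in replicate 5, at 9.65 against 8.90 to 9.18. Scd, the stearoyl-CoA desaturase, had 11.93 in that animal and 10.29 to 11.29 in the others, and Acly, ATP citrate lyase, 11.47 and 10.09 to 10.83.

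Of the 30 lists with a gene of mean 6 or more, 27 had a median SD above that of all such genes (0.10) and 3 did not. The lists were of genes known to respond or to mark cell types, and their selection was not random. Among the 3, ribosomal proteins had a median SD of 0.06 over 16 genes, none above the 90th percentile, and hepatocyte markers 0.06 over 14. Secreted plasma proteins, most of them among the 50 brightest genes, had 0.03 over 29, and the widest was Orm1, an acute phase glycoprotein, with 11.97 to 12.70 and an SD of 0.27. Cytochrome P450 genes of drug metabolism had 0.13 over 21, and the widest of these was Cyp3a9, with 7.26 to 8.35. Bile acid genes had 0.12 over 16, with Cyp7a1 at 10.51 in replicate 6 and 11.41 to 11.93 in the others.

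**Figure D5:**
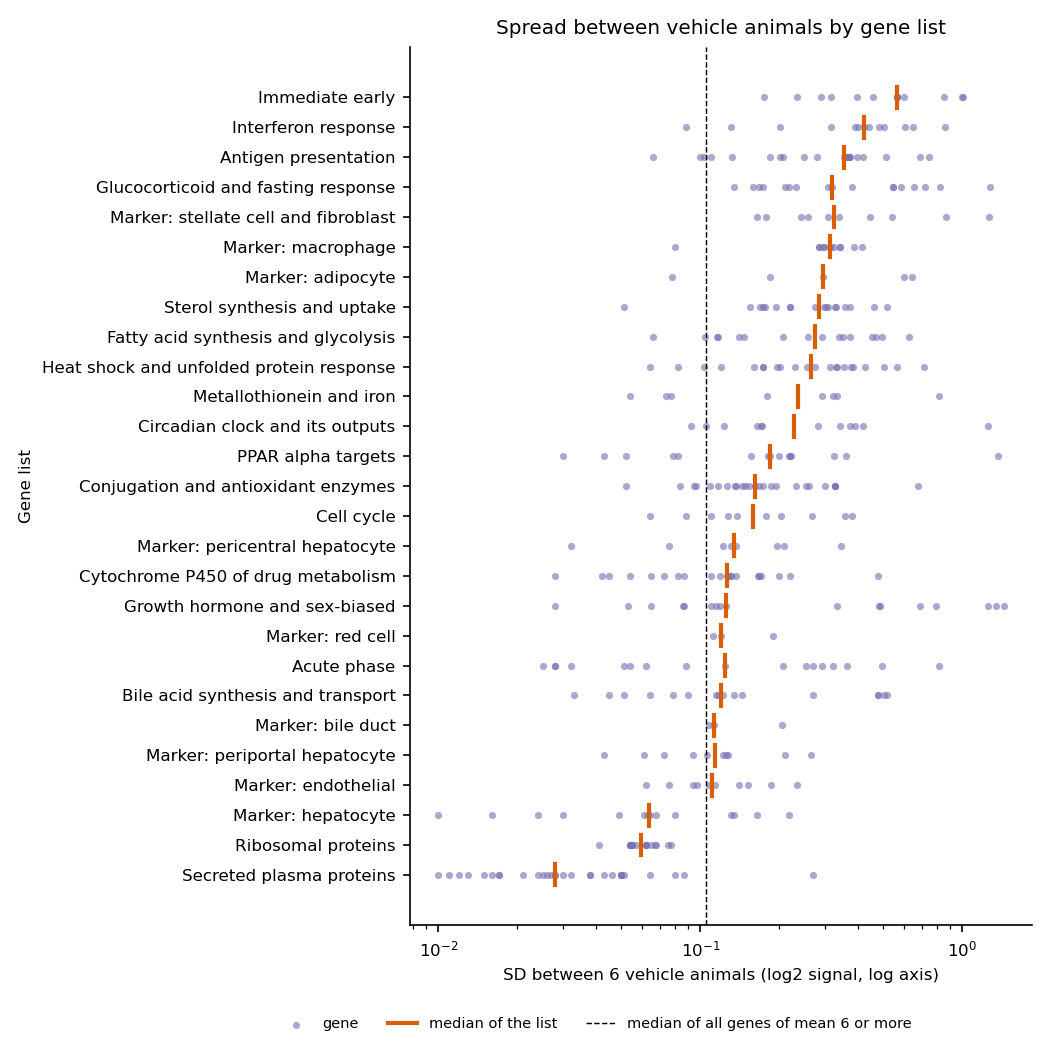
SD between the 6 vehicle animals (log axis, log2 signal) of each gene of mean 6 or more in the lists with 3 or more such genes, with the median of each list (orange) and of all genes of mean 6 or more (dashed, 0.10). Immediate early genes (median 0.56) lie at the top, and ribosomal (0.06) and secreted plasma proteins (0.03) at the bottom.

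The variable transcripts also varied between dosed animals. All 50 variable transcripts had an SD within dose groups above the 90th percentile of that measure (0.22) in the 30 dosed animals, with a range of 0.30 to 2.29 and a median of 0.73 against 0.84 in vehicle. Of the 50, 32 were also among the 50 most variable there, and 35 had a lower SD there than in vehicle, the group in which they had been chosen. In Onecut1 the SD was 1.44 in vehicle and 1.45 in the dosed animals, in Fgf21 1.37 and 1.31, and in Pxmp4 1.12 and 0.48.

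The spread of vehicle and dosed animals was also compared over all 31042 probe sets with limma, on absolute deviations from the group mean. It called 45 probe sets (0.145%), all wider in vehicle, and 0 of the 50 variable transcripts, from whose count nothing is read since the choice used the same values. With deviations from the median, limma called 0 probe sets, with 1366 at an unadjusted p under 0.05. The 45 became 138 without vehicle replicate 1, 142 without replicate 3, 82 without replicate 4 and 58 without replicate 5. It became 23 without replicate 2 and 29 without replicate 6. The count thus changed in both directions with the animal left out, and it changed with the measure of spread. The cause was not tested. On simulated data the test on deviations from the mean made more false calls than that on deviations from the median. Its adjusted p-values are given with that limit. By it Elavl1, an RNA-stabilising protein, had the smallest p, with an SD of 0.56 in vehicle and 0.20 in the dosed animals (limma adjusted p = 0.00623). Next were Gucy1b1, a guanylate cyclase subunit, with 0.34 and 0.14 (limma adjusted p = 0.00623), and Nrdc, a metalloprotease, with 0.44 and 0.16 (limma adjusted p = 0.00702).

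In level the vehicle liver differed from the mean of the 5 dosed groups in 2 of 31042 probe sets (0.00644%) by limma, with 1646 at an unadjusted p under 0.05. Both were lower in vehicle and belong to Cyp1a1 and Cyp1a2, P450 enzymes that aryl hydrocarbon receptor ligands induce. Cyp1a1 had a mean of 4.57 ± 0.15 (SD, n = 6) in vehicle, and the dosed mean was higher by 2.04 (95% interval 1.60 to 2.48, limma adjusted p = 1.308e-06). Cyp1a2 had 12.81 ± 0.14 (SD, n = 6), and the dosed mean was higher by 0.35 (0.25 to 0.45, limma adjusted p = 2.140e-04). With the 3 lowest doses alone limma called 0, with 1538 at an unadjusted p under 0.05. None of the 50 brightest transcripts was called, with differences of -0.07 to 0.06, and none of the 50 variable ones, with differences of -1.56 to 1.35; both sets had been chosen by vehicle values. For Bcl6 the difference was -1.56 (95% interval -2.67 to -0.44, limma adjusted p = 0.869) and for Onecut1 1.35 (0.14 to 2.57, limma adjusted p = 0.909). Of the dosed animals 23 of 30 had Bcl6 below the middle of the vehicle gap (8.29), as did 2 of 6 vehicle animals, and 8 of 30 had Onecut1 below its middle (8.20), as did 4 of 6 vehicle animals.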

How the data were processed

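Liver RNA of 36 rats was measured on Affymetrix 3′ IVT arrays, 1 array per sample, and the report concerns the 6 vehicle arrays. The values are log2 signals per probe set, deposited by the authors as a table of 31099 rows; per the submitters' processing notes RMA and the affy package were used, with versions not given in the sources used here. No scan date or other batch is given in the labels used here. The 57 control probe sets were left out of every summary but that of RNA quality. Names came from the platform annotation, in which 20826 probe sets name 1 gene, 436 several and 9780 none; 20758 of the first had an Entrez ID in the RefSeq table, whose symbols were used. Of several probe sets for a gene, the one with the highest vehicle mean stands for it.

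The 50 genes of highest vehicle mean (20 named) and the 50 of highest vehicle SD at a mean of 6 or more (30 named) were described. Groups were made by average linkage on 1 minus Pearson r, joined at an average r of 0.7, with 3 or more members. Lists are represented by up to 4 members of highest SD and 3 of highest mean. Exceptions named after their values were seen are the UDP-glucuronosyltransferase probe sets, the pairs of variable transcripts given beside the groups, and the genes in the flagged results. The members and lists were chosen with earlier results of these data known.

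Pairs were tested in the 30 dosed animals with 100000 permutations within dose groups, and further probe sets with all 720 orderings of the 6 animals, an exact permutation test; both were two-sided with Benjamini-Hochberg adjustment. Level and spread were compared over all 36 arrays and all probe sets with lmFit and eBayes of limma 3.58.1 (R 4.3.3), two-sided, at a Benjamini-Hochberg adjusted threshold of 0.05. The scripts were tested on simulated data. The spread test on deviations from the mean made more false calls there than the one on deviations from the median. Promoters came from RefSeq on GRCr8, and 38 of the 50 variable transcripts had one. Alternatives covered the probe set rule, array scaling, the minimum mean, the measure of spread, the clustering, the replicate number as a block and each animal left out.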

Additional observations from a re-analysis of the deposited data

Results flagged for a closer look

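Single animals stood apart from the other 5 in 13 of 214 transcripts examined (6.07%), where chance gives about 1 in 20. The share is near that rate, and the flagged values are given as a description. For Ugt2b, Ephx2, Abca1, Gbp7, Nqo1 and Retsat the rate does not apply. They were chosen by their SD over the same 6 animals, which 1 outlying value raises. Of the 13, 5 concerned replicate 5, 4 replicate 4, 2 replicate 3, and 1 each replicates 2 and 6.

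In replicate 5, Ephx2 was high at 8.96 and so was Nqo1, also at 8.96, while Retsat was low at 9.84. The same animal had low values of Gsta3, a glutathione transferase, at 6.81 against 7.38 to 7.69, and of Mt1, a metallothionein, at 6.09 against 6.62 to 6.85.

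In replicate 4, Gbp7, an interferon-induced GTPase, was low at 6.59 against 7.92 to 8.63. Kdr, the endothelial receptor of vascular growth factor, was low at 9.49 against 9.72 to 9.79. Baat, which conjugates bile acids, was low at 12.59 against 12.67 to 12.68, and Apoe at 14.06 against 14.11 to 14.14; both of these gaps are under 0.1.

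Replicate 3 had the low Ugt2b value of 5.78 and the highest value of Lcn2, an iron-scavenging lipocalin of neutrophils and stressed hepatocytes, at 5.86 against 5.45 to 5.60. Abca1 was low in replicate 2 at 8.07, and Cyp7a1 in replicate 6 at 10.51.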

How the results depend on the processing

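Of the 50 brightest genes 40 were still among the 50 when a gene's probe sets were averaged, and 49 to 50 with any 1 animal left out. Of the 50 variable transcripts 41 to 46 were still among the 50 with any 1 animal left out, 27 at a minimum mean of 8, 30 by the median absolute deviation and 32 by the SD of the dosed animals. The number of groups was 5 to 9 over all alternatives. Without the groups at 97.1 and 970 mg/kg, Onecut1 and Cish had r = 0.48 (adjusted permutation p = 0.317), and the sign turned for Ppp2r2b with Hykk (-0.27), Cdh17 with Tsku (-0.04) and Inmt with Retsat (-0.08), none of them called before or after. The level comparison called 2 probe sets in every alternative but that of the 3 lowest doses, with 0, where the highest doses are left out by construction. The spread comparison called 45, against 0 with deviations from the median, 4 at a mean of 6 or more, and 23 to 142 with 1 vehicle animal left out; the cause was not tested. With the replicate number as a block the counts were 2 for level and 44 for spread. In the main comparisons the replicate numbers were not taken as pairs. Over 90 pairs of same-numbered samples, deviations correlated at a mean r of 0.0048 (-0.25 to 0.26), and 15 pairs had an r over 0.1. This mean over all probe sets cannot exclude a factor shared by few genes or few numbers. Probe sets near background give little on the spread of dim genes, which the minimum mean left out.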
